A study of Rattus norvegicus with 9 samples.

Results

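The genes of iron handling and ferroptosis defence named below were followed in rat kidneys after warm ischaemia, with or without machine perfusion that carried mesenchymal stromal cells. The 10 genes were Hmox1, Fth1, Ftl1, Tfrc, Slc40a1, Slc11a2, Gpx4, Acsl4, Slc7a11 and Nfe2l2, and every gene probe whose name in the raw array files was one of these was taken. Of the 10 genes, 9 had probes, 16 in all, out of 30367 gene probes and 26115 gene names on the array. No probe carried the name Ftl1, but the probe named Ftl has an accession that RefSeq now names Ftl1. Its values are given beside the members and are not in any count of them. In total, 13 of the 16 probes, from 8 genes, passed the filter on dim signals, as did 15635 probes of the whole array. The filter asked for a log2 intensity over 1.1 times the 95th percentile of the negative control spots on at least 4 arrays.

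Kidneys came from Fisher F344 rats and all of them had 20 min. of warm ischaemia before nephrectomy, by clamping of the abdominal aorta according to the labels and of the renal artery according to the methods. The group called NP (n = 5) is described as not perfused in the treatment labels and in the study's methods, although its sample titles speak of perfusion in Belzer solution (BS). The group called MSC (n = 4) was perfused for 4 hrs at 4°C with BS holding 3000000 mesenchymal stromal cells (MSC), which had been grown from the bone marrow of Sprague Dawley rats with an EGFP transgene. Kidneys of both groups for the arrays were kept in RNAlater according to the methods. The age of the rats was not given in the sources used here. A further MSC array was discarded by the authors. By the treatment labels and the methods, NP and MSC differ in the perfusion itself, in the time in the cold and in the added cells. These cannot be told apart. By the sample titles, of these they would differ only in the added cells. The arrays measured RNA of whole kidney, in which fewer cells of a type and less RNA per cell cannot be told apart. The labels number the kidneys as replicates without saying more of their source, and p-values measure only the spread between these samples.

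Iron enters most cells bound to transferrin, through the receptor encoded by Tfrc, and leaves the endosome through the transporter DMT1 encoded by Slc11a2. In the kidney, filtered iron is taken back by the tubule. Spare iron is stored in ferritin, a shell of the Fth1 and Ftl1 chains, or exported through ferroportin, encoded by Slc40a1. Hmox1 encodes the inducible haem oxygenase, which breaks haem down and frees its iron. Ferroptosis is an iron-dependent death by peroxidation of membrane lipids. Acsl4 loads membranes with the polyunsaturated fatty acids that are oxidized, Slc7a11 imports cystine for glutathione, Gpx4 uses glutathione to reduce the lipid peroxides, and Nfe2l2 encodes the factor NRF2 that drives many of the defence genes. Tubular cells after ischaemia are a well known setting of ferroptosis.

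Some of the probes are printed since the results turn on where each one lies. They read 5′ to 3′ along the mRNA and lie in coding sequence, with positions as the files give them on rn4. The Hmox1 probe (chr19:13969336-13969395, plus strand) is the one with the widest range over the arrays. The Slc11a2 probe (chr7:139099082-139099141, minus strand) is the one whose groups did not overlap. The Tfrc probe is the dimmer of a pair and its bases are spread over chr11:69978846-69980500 on the minus strand, so it crosses an intron. The Nfe2l2 probe (chr3:58367137-58367196, minus strand) and 1 of the Slc7a11 probes (chr2:139248397-139248456, minus strand) end on the stop codon, which is in capitals.
Hmox1 A_43_P11472: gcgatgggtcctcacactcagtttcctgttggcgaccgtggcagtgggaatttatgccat
Slc11a2 A_64_P102430: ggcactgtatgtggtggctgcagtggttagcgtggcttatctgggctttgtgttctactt
Tfrc A_44_P313767: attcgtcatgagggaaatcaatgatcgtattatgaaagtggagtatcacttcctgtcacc
Nfe2l2 A_64_P060598: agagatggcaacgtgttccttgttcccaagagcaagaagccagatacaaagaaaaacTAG
Slc7a11 A_64_P041166: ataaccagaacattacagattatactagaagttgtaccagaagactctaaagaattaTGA

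On the 9 arrays, 65.6 to 74.3% of the gene spots were well above background, 273 to 593 gene spots were flagged and the median raw intensity was 577 to 917. MSC4 had the lowest share, the most flags and the lowest intensity. All 10 proximal tubule markers were well above background on all 9 arrays. Between the groups, 4 of 6 distal and collecting tubule markers had an unadjusted p under 0.05 and were higher in MSC (median difference 0.48 log2), 2 of 6 red cell markers were lower (median −0.90) and 2 of 8 markers each of fat and of stromal cells were higher (medians 1.33 and 0.34). In the proximal tubule list 2 of 10 markers were higher, in the thick ascending limb 1 of 5 and in the injured tubule 1 of 7, with none lower, and for the glomerulus (4 markers) and macrophages (9) no marker reached that p. These values leaned on single arrays. The red cell count was 1 without NP1, NP4, MSC1 or MSC3 and 4 without MSC2 or MSC4, and its median was −0.42 without MSC1. The fat count was 5 without MSC1 and its median 0.61 without MSC3, the distal count was 2 without NP3, and the stromal count 4 without MSC2. In the thick ascending limb 0 markers were higher and 1 was lower without NP1, MSC2 or MSC4. For the glomerulus 2 markers were lower without NP3 and 1 without MSC2, and 3 macrophage markers were higher without NP1. With limma and the thresholds of the authors (FDR below 0.05, more than 1.5-fold), 0 of 15635 probes were called higher in MSC (0%) and 0 lower (0%). The paper reported Tmem52b and Calb1 as higher at these thresholds, with probes collapsed to genes and a filter worded differently. Here Calb1 had an FDR of 0.236 in limma, and 0 were called with the most variable probe per gene. The lowest FDR was 0.105, and 1829 probes (11.7%) had an unadjusted p under 0.05, 1018 of them higher (6.51%) and 811 lower (5.19%).

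None of the 13 member probes passed the FDR threshold in limma, where their FDR lay between 0.404 and 0.998, and none differed by more than 1.5-fold. Differences between MSC and NP ran from −0.17 to 0.33 log2, with a median of 0.12, beside −0.005 over all probes tested. In MSC, 9 of the probes were higher and 4 were lower. An unadjusted p under 0.05 was reached by 3 of 13 probes (23.1%), all of them higher in MSC. These were the probe of Acsl4 and 2 of the 3 probes of Slc11a2, which measure the same gene on the same arrays and are not independent. The count depended on single arrays, and so did the probes in it. Without NP1 it was again 3, both of these Slc11a2 probes and 1 probe of Slc40a1. Without NP4 it was 3 as well, with Acsl4, Tfrc and the other Slc11a2 probe, which was lower in MSC. It was 1 without NP3 or MSC4 (Acsl4), without NP5 (the coding probe of Slc11a2) or without MSC1 (Slc40a1), and 0 without NP2, MSC2 or MSC3. The share of all probes at this p moved as well, to 16.4% without NP1, 9.06 to 12.1% without another NP array and 8.56 to 8.85% without an MSC array. The groups did not overlap for 1 of 13 probes, while over all probes 830 did not overlap (5.31%), 496 with MSC higher (3.17%) and 334 with MSC lower (2.14%).

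**Figure D1:**
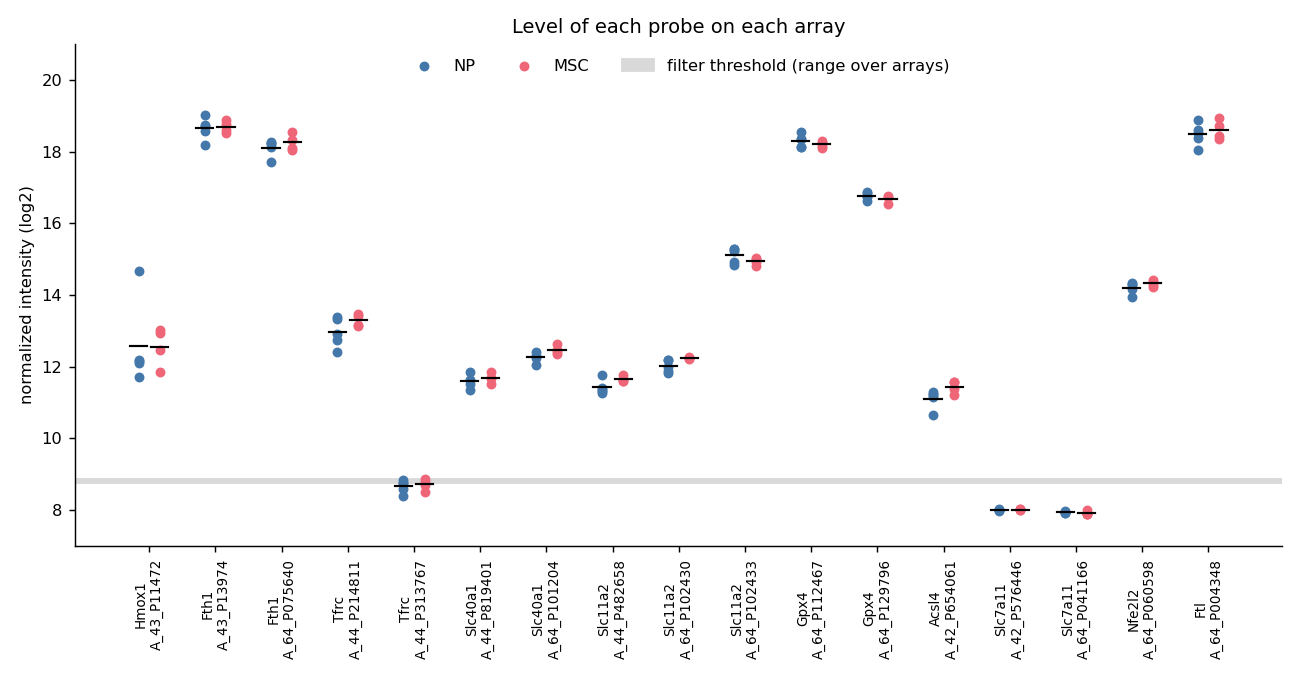
Normalized log2 intensity of the 16 member probes and of the Ftl probe on each array, with NP in blue, MSC in red and a black line at each group mean. The heights of different probes cannot be set against each other. A single NP array stands at 14.67 for Hmox1, and the lower Tfrc probe and both Slc7a11 probes lie at or under the grey band of the filter thresholds (8.75 to 8.87).

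Haem oxygenase showed the widest range of the members over the 9 arrays. The log2 intensity of Hmox1 was 14.67, 12.11, 12.15, 11.72 and 12.19 on NP1 to NP5 and 12.93, 13.01, 11.84 and 12.46 on MSC1 to MSC4. A single NP kidney, NP1, was thus the highest of all, 1.66 above the next array, while the other NP arrays and the MSC arrays overlapped. The group means were 12.57 ± 1.19 (SD, n = 5) in NP and 12.56 ± 0.54 (SD, n = 4) in MSC, a difference of −0.01 with a standard error of 0.55 and an FDR of 0.998 in limma. The 95% interval of that difference, −1.23 to 1.21, was the widest among the members. Without NP1, Hmox1 was higher in MSC by 0.52 ± 0.24 (SE), with an unadjusted p of 0.0618 and an FDR of 0.326 in limma. In the same fit 3 of 9 macrophage markers were higher at an unadjusted p under 0.05 (median difference 0.42), beside 16.4% of all probes at that p. Of the 14 macrophage markers on the array, Cd163, Mrc1, Marco, Timd4 and Vsig4 did not pass the filter. The part of macrophages in the Hmox1 difference was not tested. With array weights, Hmox1 was higher by 0.47 (limma FDR 0.554).

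The level on NP1 was shared by all spots of the probe. Hmox1 was printed 10 times on each array, and on NP1 its 10 spots lay between 14.49 and 14.85, with none flagged. On the other NP arrays the spots lay between 11.52 and 12.36 in all. NP1 was 2.62 log2, or 6.17-fold, above the mean of the other NP arrays (12.04 ± 0.22, SD). Among 15635 probes, 1 was that far above, and it was Hmox1. On NP1 the macrophage markers averaged 12.30, the highest of the NP arrays (11.27 to 12.30), and the fat markers 11.63 (NP range 10.51 to 11.64). MSC3 had the same macrophage average (12.30) and the highest fat average of the 9 arrays (13.61), with Hmox1 at 11.84. NP1 was also the lowest NP array for the proximal tubule (17.17), thick ascending limb (14.47) and stromal markers (11.49). For the injured tubule markers it was the lowest of all arrays (11.30, NP range 11.30 to 11.94). It was the highest NP array for the distal and collecting tubule markers (14.65). Their part in the Hmox1 level was not tested.

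The genes whose pattern over the 9 arrays was most like that of Hmox1 were a predicted transcript named only by its accession (r = 0.971), Smim14 (r = 0.959), which encodes a small membrane protein, and Syt5 (r = 0.958), a synaptotagmin. These are descriptions over 9 points of which NP1 is far from the rest. Their ranges were 0.46 to 0.61 log2, far below the 2.95 of Hmox1. Fth1, Nfe2l2 and Acsl4 each had their lowest value on NP1, as had Ftl. The tubule markers Umod (17.75) and Miox (18.15) were lowest on NP1 as well, and Slc13a3 was not.

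**Figure D2:**
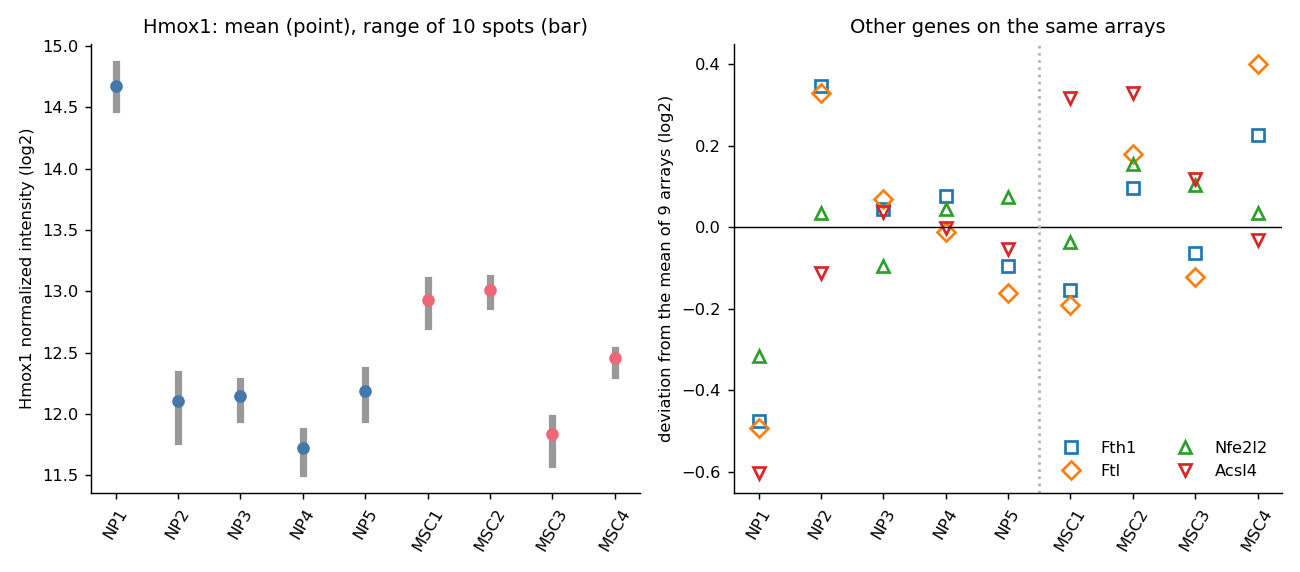
Left, log2 intensity of Hmox1 on each array, with the mean as a point and the range of its 10 spots as a grey bar. Right, the log2 values of Fth1, Ftl, Nfe2l2 and Acsl4 on the same arrays as deviations from their mean over 9 arrays. NP1 is highest for Hmox1 (14.67) and lowest for each of the other genes.

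Ferritin was bright on every array. The first Fth1 probe (chr1:212432616-212432675, plus strand) read 18.19, 19.01, 18.71, 18.74 and 18.57 in NP and 18.51, 18.76, 18.60 and 18.89 in MSC. NP1 was the lowest and NP2 the highest of the 9, so that the MSC values lay inside the NP range. The difference was 0.05 ± 0.15 (SE, limma FDR 0.93), and the 95% interval was −0.30 to 0.39. Its listed accessions include predicted transcripts beside Fth1, so the signal may be shared with near-identical copies. The second probe of the same 3′ end read 17.70, 18.20, 18.26, 18.23 and 18.13 in NP and 18.04, 18.33, 18.10 and 18.54 in MSC, with a difference of 0.15 ± 0.14 (SE, limma FDR 0.708). Both probes had NP1 as the lowest array and moved together (r = 0.85 over 9 arrays).

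The light chain followed the heavy chain. The Ftl probe read 18.05, 18.87, 18.61, 18.53 and 18.38 in NP and 18.35, 18.72, 18.42 and 18.94 in MSC, and NP1 was again the lowest. MSC and NP differed by 0.12 ± 0.17 (SE, limma FDR 0.808), which was 0.01 without NP1 or MSC4 and 0.22 without NP2. Across the 9 arrays, Fth1 and Ftl had an r of 0.96, and 0.97 once group means were taken out, the highest of any pair of these genes by the first measure. Fth1 and Gpx4 had an r of 0.78 and Nfe2l2 and Acsl4 an r of 0.74, whereas Hmox1 had an r of −0.69 with Fth1 and −0.73 with Nfe2l2. These are descriptions over 9 arrays that share their scaling and among which NP1 is extreme for several genes. Some bright probes outside the members had a similar pattern. Umod read 17.75, 18.65, 18.34, 18.31 and 18.19 in NP and 18.10, 18.51, 18.19 and 18.78 in MSC. Miox was also lowest on NP1 (18.15), whereas Slc13a3 was lowest on NP5 (18.03). Under quantile normalization the SE was 0.07 for both the first Fth1 probe and Ftl. The part of probe brightness in these correlations was not tested.

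Iron import by the transferrin receptor was measured by a pair of Tfrc probes. The brighter one (chr11:69976628-69976687, minus strand) read 12.75, 12.42, 13.33, 13.39 and 12.91 in NP and 13.47, 13.15, 13.13 and 13.41 in MSC. The MSC arrays lay between 13.13 and 13.47, within the upper part of the NP values and just above them at the top. The difference was 0.33 ± 0.20 (SE), with an unadjusted p of 0.121 and an FDR of 0.532 in limma. The intron-crossing probe printed above read between 8.38 and 8.86 on all arrays, near the filter threshold, which it did not pass, although it was well above background on all 9 arrays. Tested without the filter, its difference was 0.05 ± 0.11 (SE, unadjusted p = 0.643 in limma), below the 0.33 of the brighter probe. The difference between these probes within an array was larger by 0.28 in MSC, with a two-sided exact permutation p of 0.286.

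Ferroportin, the iron exporter, was slightly higher in MSC on both Slc40a1 probes. The probe at chr9:44978571-44978630 (minus strand) read 12.40, 12.30, 12.04, 12.23 and 12.31 in NP and 12.35, 12.62, 12.42 and 12.45 in MSC. Of the 4 MSC arrays, 3 were above every NP array. The difference was 0.20 ± 0.09 (SE), with an unadjusted p of 0.0534 and an FDR of 0.435 in limma, 0.03 to 0.163 for the unadjusted p with 1 array left out, and a two-sided exact permutation p of 0.0397. The probe at chr9:44977923-44977982 read 11.84, 11.62, 11.35, 11.62 and 11.52 in NP and 11.69, 11.84, 11.67 and 11.51 in MSC. Here the groups overlapped over most of their range, and the difference was 0.09 ± 0.11 (SE, limma FDR 0.771).

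Slc11a2, the importer of iron across endosomal and cell membranes, was the member whose probes differed in direction. Transcripts of this gene are known to end in alternative last exons, with and without an iron-responsive element, and the protein ends differ with them. Which of the probes below lies on which of these forms was not settled here beyond the transcript records that the files name. The coding probe printed above is listed for both of the records. The probe at chr7:139090121-139090180 is listed for only one of them and the probe at chr7:139094505-139094564 for only the other, all on the minus strand.

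The coding probe read 12.18, 11.82, 11.88, 11.99 and 12.19 in NP and 12.28, 12.24, 12.20 and 12.24 in MSC. All 4 MSC arrays were above all 5 NP arrays, by as little as the step from 12.19 to 12.20. The difference was 0.23 ± 0.09 (SE, unadjusted p = 0.0358, limma FDR 0.404), and the two-sided exact permutation p was 0.0476. The probe of the alternative 3′ end read 11.76, 11.26, 11.33, 11.36 and 11.39 in NP and 11.78, 11.65, 11.60 and 11.61 in MSC. NP1 stood among the MSC values and the other NP arrays lay below them. The difference was 0.24 ± 0.11 (SE), with an unadjusted p of 0.0475 and an FDR of 0.423 in limma.

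The probe of the 3′ end of the RefSeq transcript read 14.93, 15.28, 15.22, 14.84 and 15.29 in NP and 15.04, 14.99, 14.91 and 14.81 in MSC. It is the brightest of the Slc11a2 probes and was lower in MSC, by −0.17 ± 0.11 (SE, limma FDR 0.575), with the MSC arrays among or below the NP arrays. Set within each array, the log2 difference between this probe and that of the alternative 3′ end was 3.17, 4.02, 3.89, 3.48 and 3.90 in NP and 3.26, 3.35, 3.31 and 3.20 in MSC. Apart from NP1, every NP array was above every MSC array. The mean was 3.69 ± 0.35 (SD) in NP and 3.28 ± 0.06 (SD) in MSC, and MSC minus NP was −0.41 (two-sided exact permutation p = 0.0952). Against the coding probe it was −0.40 (exact permutation p = 0.0635), and neither passed after adjustment over the 7 probe pairs compared (both 0.333). Without NP1, the values were −0.54 and −0.49, each with an exact permutation p of 0.0286, the smallest that 4 against 4 arrays allow. Leaving out any other array gave no exact permutation p under 0.05. The values were −0.33 and −0.31 without NP2 (p = 0.171 and 0.0857, exact) and −0.36 and −0.34 without NP3 (p = 0.171 and 0.0857, exact). The pair formed by the alternative 3′ end and the coding probe differed between the groups by 0.01 (exact permutation p = 0.889). The statement on the pairs was chosen after their values were seen.

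**Figure D3:**
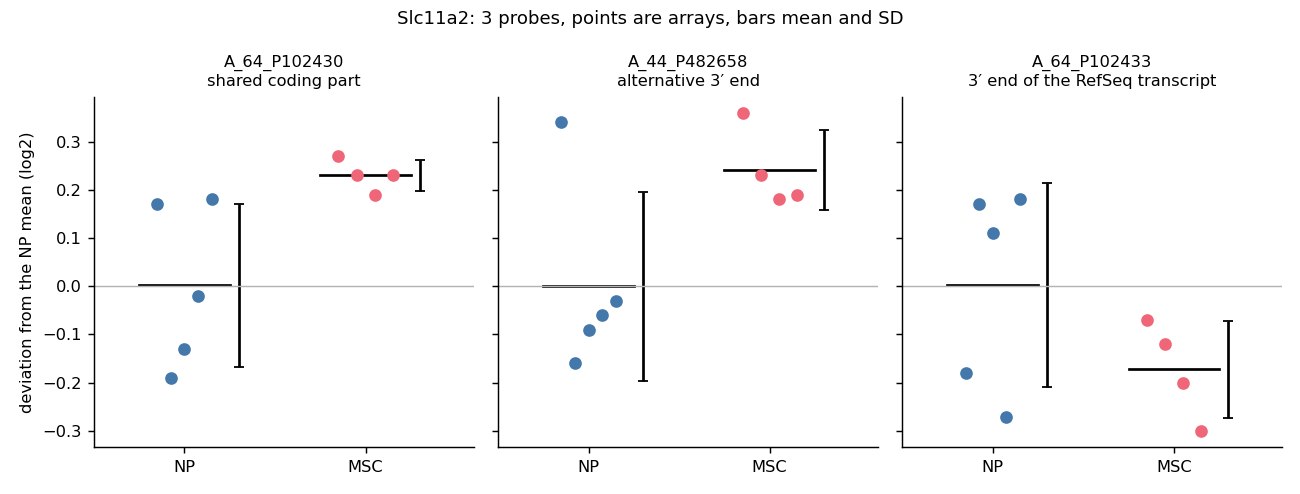
Log2 intensity of the 3 Slc11a2 probes on each array as deviation from the NP mean of the same probe, with points for arrays, lines for means and bars for the SD (NP, n = 5 and MSC, n = 4). The first 2 probes were higher in MSC (0.23 and 0.24) and the third was lower (−0.17).

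The enzyme at the centre of ferroptosis defence, Gpx4, was measured by a pair of probes. The probe at chr7:11162522-11162581 (minus strand) read 18.14, 18.54, 18.36, 18.35 and 18.13 in NP and 18.11, 18.23, 18.15 and 18.30 in MSC. MSC1 was the lowest of the 9 arrays and the other MSC values lay among the NP values. The difference was −0.11 ± 0.10 (SE, limma FDR 0.692), and its 95% interval was −0.33 to 0.11. The coding probe at chr7:11163817-11163876 read 16.83, 16.75, 16.73, 16.86 and 16.63 in NP and 16.55, 16.75 and 16.72 on MSC1 to MSC3, with its spot on MSC4 flagged and left out. That difference was −0.09 ± 0.09 (SE, limma FDR 0.734), with n = 3 in MSC. It was −0.20 with flagged spots kept (unadjusted p = 0.112 in limma) and −0.02 without MSC1, and that of the first probe was −0.05 to −0.15 with 1 array left out. The first probe differed by −0.19 under quantile normalization and by −0.21 with median scaling (unadjusted p = 0.0922 and 0.168 in limma).

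Acsl4, which supplies the oxidizable phospholipids, had an unadjusted p under 0.05. Its probe (chrX:36231647-36231706, plus strand, 10 spots) read 10.65, 11.14, 11.29, 11.25 and 11.20 in NP and 11.57, 11.58, 11.37 and 11.22 in MSC. NP1 was the lowest of all, 3 of the 4 MSC arrays were above every NP array, and MSC4 lay among the NP values. The difference was 0.33 ± 0.14 (SE), with an unadjusted p of 0.042 and an FDR of 0.416 in limma. The p was 0.0537 in limma with the slide as a block and 0.0266 to 0.109 with 1 array left out, and it stayed under 0.05 only without NP3, NP4 or MSC4. The difference was 0.55 among the arrays of the first slide (NP1 to NP3, MSC1 and MSC2) and 0.07 among those of the second (NP4, NP5, MSC3 and MSC4).

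The cystine importer Slc7a11 was not well above background on any array with either probe. Their values lay between 7.98 and 8.04 on the probe at chr2:139241468-139241527 and between 7.88 and 8.01 on the coding probe, below the filter threshold of each array. No level and no difference can therefore be given for Slc7a11 from these arrays. Nfe2l2, by contrast, was well above background on all of them. Its probe read 13.94, 14.29, 14.16, 14.30 and 14.33 in NP and 14.22, 14.41, 14.36 and 14.29 in MSC. NP1 was the lowest and the others overlapped, and the difference was 0.12 ± 0.10 (SE, limma FDR 0.659).

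**Figure D4:**
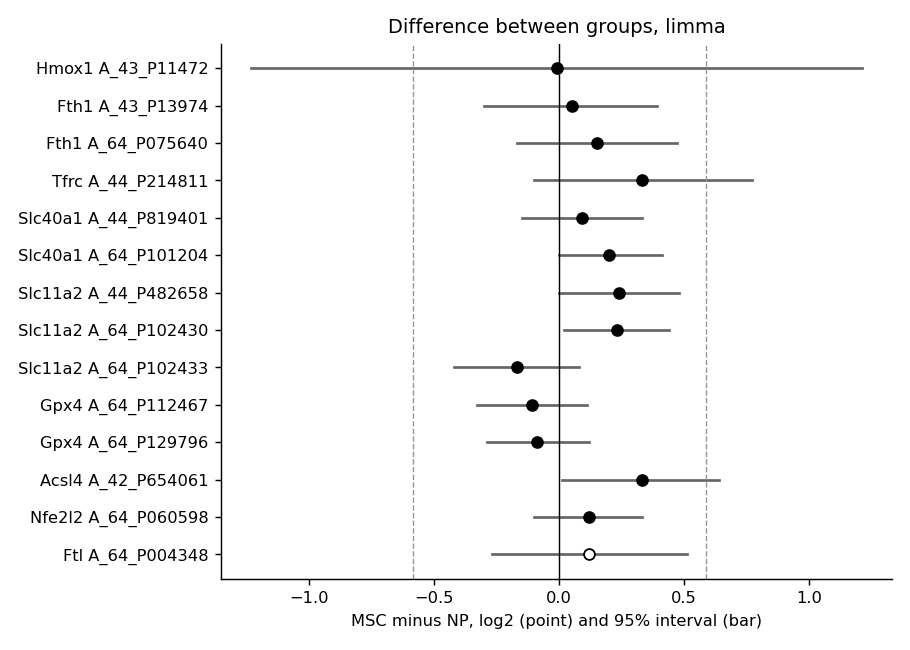
Difference in log2 intensity between MSC and NP for the 13 member probes that passed the filter (filled points) and for Ftl (open point), with the 95% interval from limma as a bar. Dashed lines mark a fold change of 1.5 either way. The points lie between −0.17 and 0.33, and the interval of Hmox1 (−1.23 to 1.21) is the widest.

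NRF2 binds the antioxidant response element, whose core was searched as TGACNNNGC on both strands. The RefSeq promoter windows (build GRCr8, 250 bases before to 50 after each start) numbered 10 for 7 of the members, and Hmox1, Fth1 and Ftl1 had no entry. The core was found in 1 of these 10 windows, that of Nfe2l2 itself, where the letters TGACGCCGC begin at base 289 of the window at chr3:81028950-81029249 (minus strand). Of all 33469 windows, 4038 held it (12.1%). A match of letters is a description only.

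Around the members, 6 lists of genes of the same biology were examined, using for each gene the probe with the highest mean. An FDR under 0.05 was reached by 0 genes of each list in limma, and the counts below are of genes with an unadjusted p under 0.05, to be read beside the 11.7% of all probes. With 1 array left out, the lists other than that of the drivers had 0 to 2 genes higher and 0 to 3 lower.

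Lipid peroxidation and ferroptosis drivers had the largest count, with 6 of 19 genes higher in MSC (31.6%) and 0 lower, and a median difference of 0.24. Of the 26 genes listed, Alox15, Alox12, Alox5, Alox15b, Nox1, Cybb and Ptgs2 did not pass the filter. The count therefore holds no lipoxygenase. Leaving out 1 array at a time left 3 to 6 genes higher, with 3 without MSC2 or MSC4 and 4 without NP2, NP3, NP5 or MSC3, and medians of 0.23 to 0.28, and 1 gene was lower without NP4. Over all probes the share in these fits was 8.56 to 16.4%. Cyb5r1, a reductase that passes electrons to oxygen and helps start lipid peroxidation, read 14.68, 13.36, 14.03, 13.90 and 14.39 in NP and 14.71, 15.38, 15.03 and 15.12 in MSC, and the groups did not overlap. It was higher by 0.99 ± 0.24 (SE, limma FDR 0.333). Vdac3, an anion channel of the outer mitochondrial membrane, was higher by 0.31 ± 0.09 (SE, limma FDR 0.333), also without overlap. Sat1, which acetylates polyamines, was higher by 0.42 ± 0.15 (SE, limma FDR 0.344). The other genes were Acsl3 (0.28), Slc1a5 (0.34), the glutamine importer, and Fads1 (0.35), which desaturates polyunsaturated fatty acids. Not all of the list are drivers, since Acsl3 and Scd1 are known to supply membranes with monounsaturated fatty acids, which protect from ferroptosis. Pebp1, the list's brightest gene, differed by 0.12. Scd1, a desaturase of fat tissue, had the widest difference of the list, 2.50 ± 1.16 (SE, limma FDR 0.44), with 15.40 on MSC3 and 12.36 on MSC4. The fat markers averaged 13.61 and 13.00 on MSC3 and MSC4 and 10.48 to 11.64 on the other arrays, and their part in this list was not tested.

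Among glutathione, selenoprotein and other defence genes, 1 of 25 was higher and 2 were lower (12% in all, median −0.05). Slc3a2, the heavy chain that partners Slc7a11 and other amino acid transporters, read 14.66, 14.06, 14.49, 14.73 and 14.86 in NP and 15.04, 14.96, 15.10 and 14.88 in MSC. All MSC arrays were above all NP arrays, with a difference of 0.44 ± 0.15 (SE, limma FDR 0.341). Chac1, which degrades glutathione, was lower by −0.39 ± 0.10 (SE, limma FDR 0.333), with no overlap between 9.38 to 9.61 in NP and 8.88 to 9.29 in MSC. Sephs2, which makes the selenium donor for selenoproteins such as Gpx4, differed by −0.19 (limma FDR 0.414). Gclc, which catalyses the first step of glutathione synthesis and was the brightest, differed by 0.03.

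Haem genes gave 1 of 17 higher and 2 lower (17.6% in all, median 0.05). Alas2, the first enzyme of haem synthesis in red cell precursors, read 12.50, 11.16, 11.54, 12.44 and 11.78 in NP and 8.26, 11.52, 9.61 and 11.16 in MSC, a difference of −1.74 ± 0.61 (SE, limma FDR 0.348). The MSC arrays were uneven, and the 2 lowest, MSC1 and MSC3, were also the lowest for the average of the red cell markers (11.75 and 12.76, beside 13.42 to 14.04 in NP), a list of which Alas2 is itself a part. Blvrb, which reduces biliverdin, was lower by −0.27 and Flvcr2 higher by 0.46, while Alad, the brightest, differed by 0.05.

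In the remaining lists the shares were 4.35, 10.5 and 3.85%. Of 23 further genes of iron uptake, storage, export and regulation, 0 were higher and 1 was lower (median 0.00). That gene was Mon1a, a trafficking factor, with −0.23 ± 0.08 (SE, limma FDR 0.335) and no overlap. Next by p were Hfe2, with −0.28, and Steap1, with 0.16, and Lrp2, the megalin of the proximal tubule, differed by 0.06. Hamp, which encodes hepcidin, did not pass the filter. Of 19 mitochondrial genes, Abcb8 was higher by 0.22 and Cisd2 lower by −0.39 (median −0.03), Abcb10 differed by −0.35 (unadjusted p = 0.0567 in limma) and Cisd1 by 0.01. Of 26 further targets and partners of Nfe2l2, 1 was higher, Ephx1, with 0.28, and 0 were lower (median −0.04). Tkt and Cbr1 differed by 0.18 and 0.22.

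**Figure D5:**
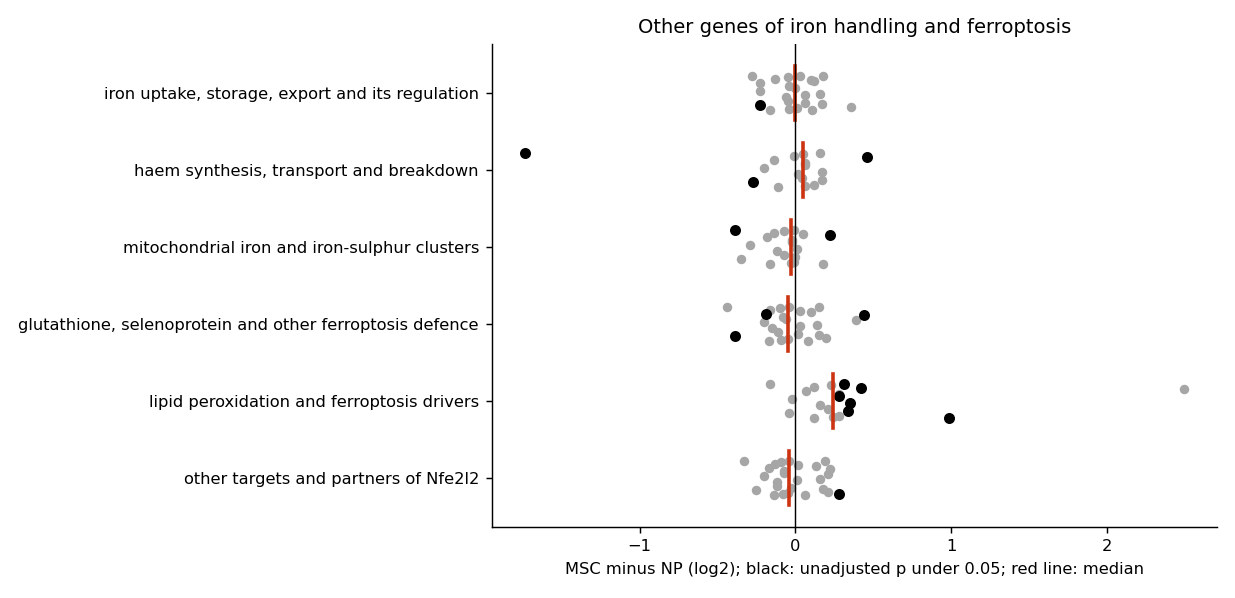
Difference in log2 intensity between MSC and NP for each gene of the 6 lists that passed the filter, with black points for an unadjusted p under 0.05 in limma, grey points for the rest and a red line at the median. The medians lie between −0.05 and 0.05 apart from that of lipid peroxidation and ferroptosis drivers (0.24), whose rightmost point is Scd1 (2.50), and the leftmost point of the plot is Alas2 (−1.74).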

How the data were processed

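RNA of 5 NP and 4 MSC rat kidneys had been labelled with Cy3 and hybridized to 1-colour Agilent arrays, 1 array per kidney. The deposited raw files hold the intensity of each spot, and the mean pixel intensity was taken without background subtraction, since the methods name none. The authors' table of normalized log2 values was set against those computed here, and over 15635 probes the Pearson correlation of each array lay between 0.9999 and 0.99997. That table holds 30507 rows and was not filtered.

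Log2 intensities were normalized by cyclic loess over all spots (R 4.3.3, limma 3.58.1), spots with outlier flags were left out, and spots of a probe were averaged. The filter on dim probes used the 95th percentile of the negative controls on the log2 scale, multiplied by 1.1, which 4 arrays or more had to exceed. MSC was compared with NP probe by probe in limma with Benjamini-Hochberg adjustment over 15635 probes. Exact permutation tests over the 126 splits of 9 arrays into 5 and 4 were two-sided, and the smallest p they can give is 0.00794. Precision is limited by how many arrays there are, since no read depth applies. The steps were tested on simulated data with each probe drawn on its own and no effect of array or slide. The changes put in were larger than any difference of the members. That test cannot tell how well differences as small as theirs would be found.

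The members and the gene lists were chosen with earlier results of these data known. Named were the members with all their probes, in each list the 3 genes with the smallest p and the brightest, and the 3 genes most like the member with the widest range. Other genes named beside these, and the statement on pairs of probes, were chosen after their values were seen. Of the 16 member probes, 15 had an accession in a current RefSeq table and 0 had changed name. Replicate numbers did not pair the arrays. Alternatives covered scaling, background, filter, summary per gene, variance model, slide, replicate block and leaving out each array. Protein and transcript sequences were not analysed here. Columns of per-sample values left unused numbered 0.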

Additional observations from a re-analysis of the deposited data

Results flagged for a closer look

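In 33 groups of 4 or 5 values, the gap of the highest or lowest array to its neighbour, as a share of the range of the group, passed Dixon's critical value in 5. Chance flags about 1 group in 20. The probes of a gene are not independent, and 4 of the 5 concern the same array, NP1.

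NP1 was set apart upwards for Hmox1, with a gap of 0.842 of the range, and for the alternative 3′ end of Slc11a2, with 0.734. It was set apart downwards for the second Fth1 probe, with 0.762, and for Acsl4, with 0.754. The other case was MSC2 on the coding probe of Slc7a11, with 0.879, where all values are at background.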

How the results depend on the processing

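Across 26 alternatives, 340 of 353 values of the member probes and of Ftl kept their direction, 13 reversed and 0 passed the FDR in limma. Hmox1 was 0.01 under quantile normalization, 0.01 with the processed signal, 0.47 with array weights and 0.09 with the slide as a block, and −0.22 to 0.52 when each array was left out. The first Fth1 probe was −0.06 under quantile normalization, −0.02 with 75th percentile scaling and −0.06 with median scaling, and −0.07 to 0.14 when each array was left out. The mean of the Slc11a2 probes was 0.10. It was counted among the reversals against the −0.17 of the brightest probe, although it pools all the probes of the gene. Leaving out each array gave 0.05 to 0.22 for the second Fth1 probe, 0.20 to 0.44 for Tfrc, 0.03 to 0.15 for the dimmer Slc40a1 probe and 0.05 to 0.15 for Nfe2l2. Other processing went past some of these ranges. The second Fth1 probe was 0.02 with the processed signal and 0.04 with median scaling, and Tfrc was 0.18 with array weights. The count of 3 of 13 member probes with an unadjusted p under 0.05 was 4 of 16 with no filter. It was 4 of 14 with a filter on linear intensity or one on signals well above background, and 4 of 12 with array weights. In each of these settings a Slc40a1 probe joined. The count was 2 of 8 with the most variable probe per gene. It was 2 of 13 with normexp, an intensity trend or the slide as a block. With the slide as a block, Acsl4 had a p of 0.0537 in limma. The count was 1 of 8 with the mean of probes per gene. It was 1 of 13 with quantile normalization, 75th percentile scaling, the processed signal or the replicate number as a block. It was 0 of 13 with median scaling, and 0 to 3 of 13 when each array was left out. The share of all probes at this p was 11.7%, and 12.6% with the slide as a block. It is not given here for the other scalings, filters and models. The median of all probes lay between −0.037 and 0 under these scalings, beside −0.005. Of all probes, 2 were called higher with array weights, and 95 were higher and 82 lower with an unadjusted p and the fold change in place of the FDR. In same-numbered NP and MSC arrays the correlations of deviations were 0.20, 0.32, −0.35 and 0.05, and the numbers were not read as pairs. The cause of these shifts was not tested. Depth does not apply, and signals at background limit Slc7a11, while the second Tfrc probe was above background but below the filter.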
